A study of Homo sapiens with 9 samples.

Results

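The genes described here are 56 genes of the mitotic spindle, the kinetochore and cytokinesis, out of 63677 genes in the deposited table of normalized counts. They were taken from that table by symbol, on the primary chromosomes, and were grouped by role. The spindle checkpoint and its RZZ complex gave 7 genes, the kinases and cyclins of mitotic entry 5, anaphase and mitotic exit 3, kinesins 8, other spindle microtubule proteins 6, the centromere and kinetochore 12, the chromosomal passenger complex with the shugoshins 6, cytokinesis 5, chromosome structure and surface 2, and transcription factors 2. All 56 were found, and all passed the filter of a mean of at least 10 normalized counts.

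In mitosis, cyclin B and CDK1 drive entry, motors and microtubule-binding proteins build a bipolar spindle, and kinetochores on each centromere attach the chromosomes to it. The spindle checkpoint holds back the anaphase-promoting complex (APC/C) until every kinetochore is attached, after which securin and cyclin B are destroyed, the chromatids part, and a contractile ring and midbody divide the cell. The transcripts of these proteins rise together in G2 and fall after division. FOXM1 and B-MYB (MYBL2) activate them together with the MuvB core, while the DREAM complex represses them in resting cells, in part through a promoter element called the cell cycle genes homology region (CHR), and p53 acts on them through its target p21, encoded by CDKN1A.

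The samples were HCT116 cells, an established human colorectal carcinoma line of epithelial origin with genotype WT in the labels, harvested 48 h after transfection of siRNA with a lipid reagent. In siRNF40, the siRNA targeted RNF40, a subunit of the ubiquitin ligase that monoubiquitinates histone H2B. In siTG2 it targeted TG2, the protein-crosslinking enzyme transglutaminase 2, encoded by TGM2. The third group, siControl, received a control siRNA. Each group had 3 libraries of polyadenylated RNA, and no label says whether these were separate cultures, so each p-value measures spread that may be technical.

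Between 29161285 and 35743918 reads were assigned to genes per library, and 1 read was worth 0.880 to 1.10 normalized counts. RNF40 averaged 520.1 ± 20.6 normalized counts in siRNF40 and 2784 ± 219 in siControl, and TGM2 averaged 112 ± 48.6 in siTG2 and 605 ± 84.4 in siControl (SD, n = 3 each), so each targeted gene was lower in its own knockdown. RNF40 was also lower in siTG2 (2304 ± 180, log2 fold change -0.27, limma adjusted p = 0.019). That call ended under equal totals (limma adjusted p = 0.26), quantile normalization and some fits with 1 library left out. TGM2 averaged 877 ± 74.2 in siRNF40, above siControl in every library (0.54, limma adjusted p = 0.063, and under 0.05 in some alternatives). Of 8 intestinal epithelial markers, 6 averaged at least 10 normalized counts in every group, among them EPCAM, CDH1 and keratins, and VIL1 and CDX1 were near 0. The summed level of the 8 was 129433 to 156195 normalized counts in siRNF40, 77901 to 89021 in siTG2 and 87274 to 95729.8 in siControl, so siRNF40 lay above the other groups. Of 10 markers of other cell types found in the table, PTPRC, CD3E and HBB were at or near 0, while COL1A1 was detected. The summed level of these 10 was 1524 to 1924 in siRNF40, 1224 to 1439 in siTG2 and 1008 to 1156 in siControl, carried mainly by COL1A1 (1463 ± 175 in siRNF40, 1049.7 ± 86.8 in siTG2 and 889 ± 87.2 in siControl). CDKN1A averaged 74315 ± 5888 in siRNF40, 21298 ± 1188 in siTG2 and 21567 ± 479 in siControl. The part of these differences in the results below was not tested.

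The promoters of the genes are shown first, because most of these genes are known to be switched by elements near their start site. RefSeq promoter windows (GRCh38.p14, 250 bases before to 50 after the transcription start) were matched for 46 of the 56 genes, 2 of them by their newer symbols SGO1 and SGO2. The windows were searched on both strands for the CHR words TTTGAA and TTTAAA and for CCAAT, the core of the box bound by NF-Y. Capitals mark a match to any of these words on either strand (TTCAAA and ATTGG are their reverse complements), and matches can overlap. The 5 genes below were chosen after their values were seen. ANLN had the largest decrease of the 56 in siRNF40, and PRC1 was called lower in siTG2 than in siRNF40 as the values were deposited. That PRC1 call was lost under quantile normalization and equal totals. CCNB2 was lowered in both, PTTG1 was called lower in siRNF40 and not in siTG2, and MYBL2 holds none of the words. Each is written 5′ to 3′ along the strand of its gene.
ANLN: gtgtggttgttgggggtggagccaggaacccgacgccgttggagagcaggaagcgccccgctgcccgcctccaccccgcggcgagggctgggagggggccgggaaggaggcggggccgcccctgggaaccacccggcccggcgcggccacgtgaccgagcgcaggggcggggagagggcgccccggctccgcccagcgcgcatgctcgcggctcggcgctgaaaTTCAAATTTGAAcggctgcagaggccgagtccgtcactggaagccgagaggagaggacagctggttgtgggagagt
PRC1: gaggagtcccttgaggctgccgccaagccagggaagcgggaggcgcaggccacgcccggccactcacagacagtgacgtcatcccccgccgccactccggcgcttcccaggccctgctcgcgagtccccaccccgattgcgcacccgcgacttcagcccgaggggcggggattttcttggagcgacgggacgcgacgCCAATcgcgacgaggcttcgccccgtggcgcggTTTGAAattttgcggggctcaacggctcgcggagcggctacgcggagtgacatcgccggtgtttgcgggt
CCNB2: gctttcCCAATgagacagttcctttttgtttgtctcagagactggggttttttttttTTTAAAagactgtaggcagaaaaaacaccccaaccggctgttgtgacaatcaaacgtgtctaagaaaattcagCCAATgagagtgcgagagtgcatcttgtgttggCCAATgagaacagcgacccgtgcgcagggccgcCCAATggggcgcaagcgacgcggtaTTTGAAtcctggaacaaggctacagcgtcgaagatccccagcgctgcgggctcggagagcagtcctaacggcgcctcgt
PTTG1: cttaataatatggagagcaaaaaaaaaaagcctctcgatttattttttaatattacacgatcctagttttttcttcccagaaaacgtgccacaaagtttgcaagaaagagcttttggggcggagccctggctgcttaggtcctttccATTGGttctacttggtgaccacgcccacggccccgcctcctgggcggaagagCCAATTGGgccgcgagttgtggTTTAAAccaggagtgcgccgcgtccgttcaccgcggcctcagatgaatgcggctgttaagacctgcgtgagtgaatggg
MYBL2: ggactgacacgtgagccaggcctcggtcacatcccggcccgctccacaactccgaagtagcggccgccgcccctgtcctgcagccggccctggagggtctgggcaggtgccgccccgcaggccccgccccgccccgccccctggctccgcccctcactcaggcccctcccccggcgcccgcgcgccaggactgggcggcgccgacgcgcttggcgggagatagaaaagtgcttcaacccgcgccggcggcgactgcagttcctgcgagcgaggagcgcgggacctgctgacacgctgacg

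ANLN, on the plus strand at chr7:36389612-36389911, holds TTTGAA on both strands side by side, at -26 to -21 and at -20 to -15 from the transcription start, and no CCAAT. PRC1, on the minus strand at chr15:90994486-90994785, has TTTGAA at -20 to -15 and a CCAAT at -53 to -49. CCNB2, on the plus strand at chr15:59104896-59105195, has TTTGAA at -29 to -24, TTTAAA at -193 to -188 and 4 CCAAT words. PTTG1, on the plus strand at chr5:160421605-160421904, has TTTAAA at -29 to -24 and 3 CCAAT words, of which 1 pair overlaps. PTTG1 has 2 windows, and the one shown was chosen by its number of CHR words and then of CCAAT words. MYBL2, on the plus strand at chr20:43666864-43667163, has none of the words in this window, which says nothing about the factors that bind there. So 4 of the 5 windows hold a CHR word in the 30 bases before the start.

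Across the matched genes the words were frequent. A CHR word stood in the window of 37 of 46 genes (80.4%), against 27.9% of all 27305 genes in the promoter table and 21.4% of the 10923 tested protein-coding genes. Within 50 bases of the start it stood in 71.7% of the 46, against 6.85% of tested protein-coding genes. CCAAT was present in 78.3%, against 43.1%, and both words together in 65.2%, against 11.4%. For a gene with several windows, each word was counted in the window that held the most of it. So both words of such a gene can lie in different windows. The 9 matched genes without a CHR word were AURKB, BUB1, CENPI, CENPK, CKAP2, MYBL2, SGOL1, SPC24 and ZWILCH. In siRNF40 the median log2 fold change was -0.93 over the 37 genes with it and -0.85 over the 9 without it, and in siTG2 -0.25 and -0.49. These are descriptions of the letters in a window, and none of the windows was tested for binding.

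**Figure D1:**
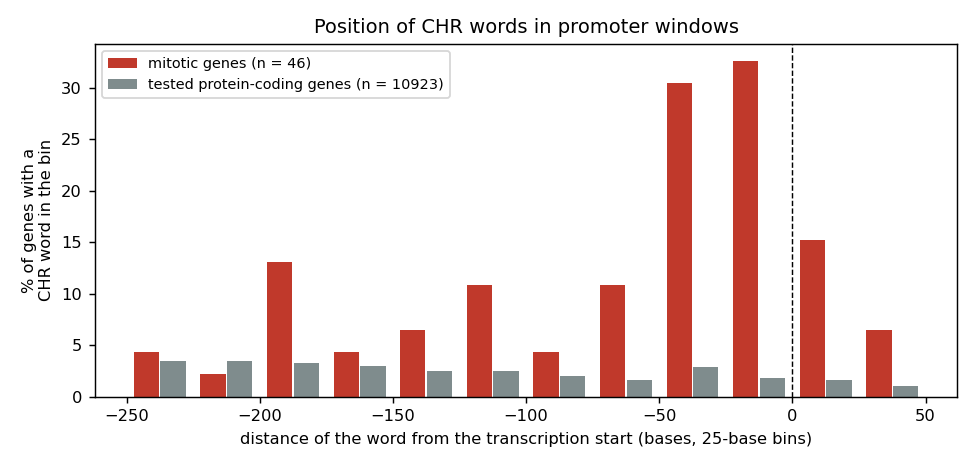
Share of genes, in percent, with a CHR word (TTTGAA or TTTAAA, either strand) in each 25-base bin of the promoter window, by distance of the word from the transcription start, for 46 mitotic genes and 10923 tested protein-coding genes. The mitotic genes peak in the 50 bases before the start, where 30.4% and 32.6% of them hold a word in a bin, while the share of tested protein-coding genes stays low in every bin.

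Every gene of the set was lower after knockdown of RNF40. All 56 were called lower in siRNF40 than in siControl at a limma adjusted p under 0.05, none was called higher, and for all 56 every siRNF40 library lay below every siControl library. Over all 17663 genes tested, 23.6% were called lower, 21.7% were called higher, and 26.8% had every siRNF40 library below every siControl library. The median log2 fold change of the 56 was -0.89, that is, 54.1% of the control level, and the range ran from -1.88 for ANLN to -0.42 for ZWILCH, against a median of 0.016 over all genes tested. The geometric mean level over the 56 genes was 53.0%, 54.5% and 49.4% of siControl in the 3 siRNF40 libraries, so replicate 3 was the lowest. The authors' deposited table also calls all 56 lower, against 11.4% of its 35538 genes with a p-value. Those genes are a wider set than the 17663 tested here, so the 2 shares are not alike. In these bulk samples, fewer cells in G2 and mitosis and less transcript per cell cannot be told apart.

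After knockdown of TG2 a part of the set was lower. In siTG2, 34 of the 56 genes were called lower than in siControl, none higher and 22 neither, where 18.5% of all genes tested were called lower and 12.8% higher. Quantile normalization and scaling to equal totals each left 21 lower and called 1, ASPM, higher. Every siTG2 library lay below every siControl library for 41 of the 56, against 26.1% of all genes. The median log2 fold change was -0.27, or 82.9% of the control level, with a range of -1.32 for UBE2C to 0.20 for ASPM, and the median over all genes tested was -0.0069. The geometric mean level was 80.6%, 79.9% and 82.2% of siControl in the 3 siTG2 libraries, above all 3 siRNF40 libraries. The authors' deposited table calls 33 of the 56 lower in siTG2, against 9.13% of its 35538 genes with a p-value. A core of 19 genes was called lower in siTG2 under all 19 alternative settings tried: UBE2C, PRC1, MYBL2, CENPM, CCNB2, CENPK, KIF2C, ZWILCH, SPC24, AURKB, KIF23, CEP55, FOXM1, PLK1, KIF11, MAD2L1, CENPE, NDC80 and HMMR. The other 15 lost the call under at least 1 setting. Of these, AURKA, TPX2, TOP2A, MKI67, CDK1 and KNTC1 lost it under quantile normalization or equal totals alone, and 9 lost it when 1 library was left out, namely TTK, ECT2, KIF18A, CDCA8, CKAP2, NUSAP1, CASC5, BUB1B and KIF15.

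**Figure D2:**
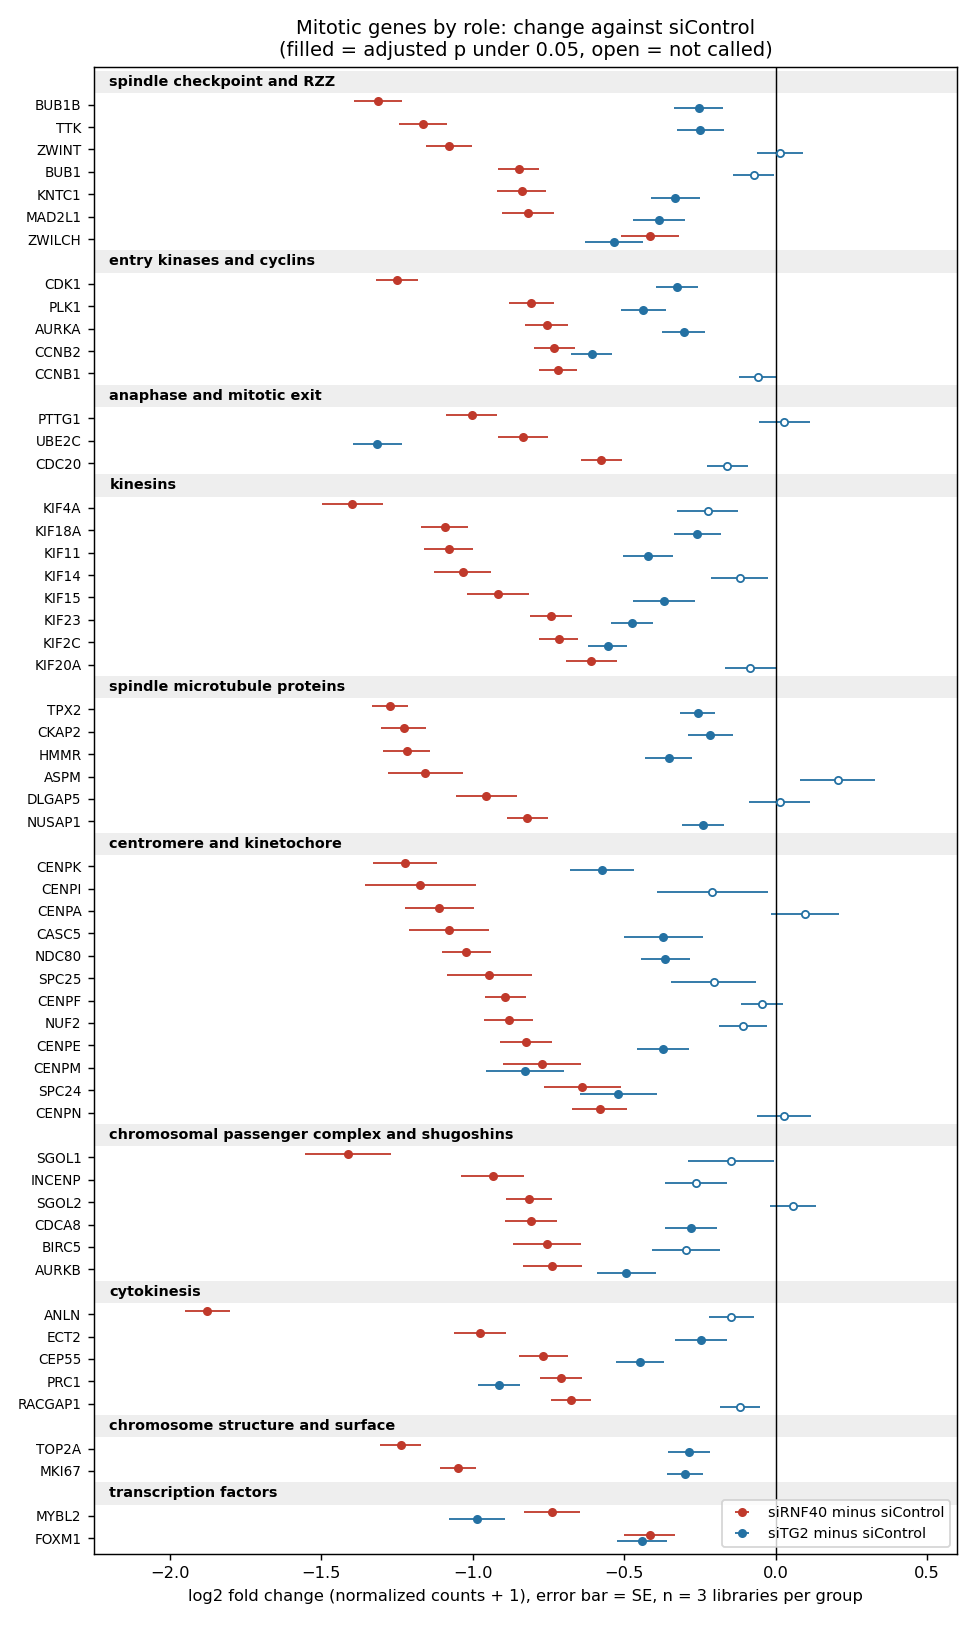
Log2 fold change against siControl for each of the 56 genes, grouped by role, for siRNF40 (red) and siTG2 (blue), with limma's standard error (3 libraries per group). Filled points had an adjusted p under 0.05. All red points lie between -1.88 and -0.42, and the blue points lie between -1.32 and 0.20. Of the blue points 34 are filled, of which 21 remain called lower when libraries are scaled to equal totals.

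Among the spindle checkpoint genes, all 7 were lower in siRNF40, with a median log2 fold change of -0.85, and 5 of 7 were lower in siTG2 (median -0.25). BUB1B (BubR1), a subunit of the mitotic checkpoint complex (chr15:40453224-40513337, plus strand in hg19, the build of all gene coordinates below) had 1209.5, 1297 and 1108 normalized counts in siRNF40, 2695, 2344 and 2491 in siTG2 and 2961, 2861 and 3155 in siControl. Its siRNF40 libraries lay far below the other groups, and its siTG2 libraries lay below all siControl libraries (log2 fold change -1.31, SE 0.080, limma adjusted p = 2.5e-10 in siRNF40 and -0.25, SE 0.080, limma adjusted p = 0.02 in siTG2). TTK, the MPS1 kinase at the top of the checkpoint (chr6:80713604-80752244, plus strand), had 997, 1116 and 966 normalized counts in siRNF40, 1859, 1934 and 2015 in siTG2 and 2354, 2335 and 2209.6 in siControl. The same order held, with -1.17, SE 0.078, limma adjusted p = 8.8e-10 in siRNF40 and -0.25, SE 0.078, limma adjusted p = 0.021 in siTG2. ZWINT, which links the outer kinetochore to the RZZ complex (chr10:58116989-58121036, minus strand), had 924, 955 and 920.0 normalized counts in siRNF40, 1858, 2141 and 1981 in siTG2 and 2000.0, 1965 and 1949 in siControl. Its siRNF40 libraries were at 47.3% of the control mean, and its siTG2 and siControl libraries overlapped (-1.08, SE 0.077, limma adjusted p = 1.9e-09 in siRNF40, 0.014, SE 0.077, limma adjusted p = 0.92 in siTG2). ZWILCH, an RZZ subunit (chr15:66797297-66842115, plus strand), had the smallest change of the 56 in siRNF40. It had 997, 1125 and 913 normalized counts in siRNF40, 874, 906 and 1012 in siTG2 and 1293, 1434 and 1309.8 in siControl, so both knockdowns lay below siControl and overlapped each other (-0.42, SE 0.095, limma adjusted p = 0.0015 in siRNF40, -0.53, SE 0.095, limma adjusted p = 0.00028 in siTG2). On the opposite strand, the ribosomal protein gene RPL4 overlaps ZWILCH, with normalized counts at 5389% of those of ZWILCH. Whether reads were counted by strand is not stated, so the ZWILCH value is uncertain. MAD2L1, which binds and inhibits CDC20, had 1906, 1944 and 1508 normalized counts in siRNF40, 2338, 2376 and 2472 in siTG2 and 3058, 3106 and 3223 in siControl. The 3 groups stood apart, with siRNF40 the lowest. Its log2 fold change was -0.82 in siRNF40 and -0.39 in siTG2, and the RZZ subunit KNTC1 had -0.84 and -0.33, all 4 called. The kinase BUB1 fell in siRNF40 (-0.85), while its change in siTG2 (-0.073) missed the threshold.

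The engine of mitotic entry was lowered as well, with all 5 genes lower in siRNF40 (median -0.76) and 4 of 5 in siTG2 (median -0.33). CDK1, the kinase that drives mitosis (chr10:62538089-62554610, plus strand), had 2107, 2250.3 and 2001 normalized counts in siRNF40, 3796, 4078 and 4195 in siTG2 and 4986, 5236 and 4898 in siControl. The 3 groups did not overlap, with siRNF40 at 42.1% and siTG2 at 79.8% of the control mean (-1.25, SE 0.068, limma adjusted p = 6.1e-11 in siRNF40, -0.33, SE 0.068, limma adjusted p = 0.0012 in siTG2). Its cyclins come next. Cyclin B2 (CCNB2, chr15:59397277-59417244, plus strand) had 1699, 1629 and 1694 normalized counts in siRNF40, 1869, 1744 and 1856 in siTG2 and 2799, 2768 and 2766 in siControl. All 6 knockdown libraries lay below all siControl libraries, and the knockdowns were close to each other (-0.73, SE 0.069, limma adjusted p = 7.4e-08 in siRNF40, -0.61, SE 0.069, limma adjusted p = 1.8e-06 in siTG2). Cyclin B1 (CCNB1, chr5:68462837-68474072, plus strand) had 4094, 4349.8 and 3988 normalized counts in siRNF40, 6389, 6911 and 6339 in siTG2 and 6916, 6830.3 and 6710.4 in siControl. It was low in siRNF40, while siTG2 and siControl overlapped (-0.72, SE 0.062, limma adjusted p = 2.3e-08 in siRNF40, -0.060, SE 0.062, limma adjusted p = 0.5 in siTG2). PLK1, the polo-like kinase of centrosome maturation and mitotic exit, had 1605, 1593 and 1737 normalized counts in siRNF40, 2021, 2273 and 2087 in siTG2 and 2871, 2966 and 2791 in siControl. AURKA, the spindle pole kinase Aurora A, had 1548, 1662 and 1639 normalized counts in siRNF40, 2112, 2202 and 2321 in siTG2 and 2787, 2657 and 2744 in siControl. For both kinases siRNF40 was the lowest group, siTG2 lay between, and no groups overlapped. The log2 fold changes of PLK1 were -0.81 in siRNF40 and -0.44 in siTG2, and those of AURKA -0.76 and -0.30. All 4 values were called lower.

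The 3 genes of anaphase and mitotic exit fell in siRNF40 (median -0.83) and 1 of 3 was called lower in siTG2. UBE2C, the ubiquitin-conjugating enzyme that works with the APC/C (chr20:44441215-44445596, plus strand), had 2504, 2227 and 2105 normalized counts in siRNF40, 1469.7, 1771 and 1656 in siTG2 and 4148, 3983 and 4024 in siControl. The groups did not overlap, with siRNF40 at 56.2% of the control mean and siTG2 lower still, at 40.3% (-0.83, SE 0.082, limma adjusted p = 1.2e-07 in siRNF40, -1.32, SE 0.082, limma adjusted p = 7e-10 in siTG2). This was the largest change of the set in siTG2. PTTG1, the securin that guards separase until anaphase (chr5:159848829-159855748, plus strand), had 1138, 932 and 1091 normalized counts in siRNF40, 2028, 2266 and 2156 in siTG2 and 2068, 2189 and 2066 in siControl. Its siRNF40 libraries lay far below the others, and its siTG2 libraries overlapped siControl (-1.004, SE 0.084, limma adjusted p = 1.7e-08 in siRNF40, 0.028, SE 0.084, limma adjusted p = 0.84 in siTG2). CDC20, the activator of the APC/C and the protein held by the checkpoint (chr1:43824626-43828874, plus strand), had 4505, 4544 and 4827 normalized counts in siRNF40, 5921, 6753 and 5859 in siTG2 and 6510.0, 7155 and 7016 in siControl. It fell least of the 3 in siRNF40, and siTG2 overlapped siControl (-0.58, SE 0.068, limma adjusted p = 1.4e-06 in siRNF40, -0.16, SE 0.068, limma adjusted p = 0.084 in siTG2). Without siTG2 replicate 2, CDC20 was called lower in siTG2 (log2 fold change -0.23, limma adjusted p = 0.02, and 0.02 to 0.92 over the alternatives).

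All 8 kinesins, the microtubule motors of the spindle, fell in siRNF40 (median log2 fold change -0.98), and 5 of 8 fell in siTG2 (median -0.31). KIF4A, a motor of chromosomes and of the central spindle (chrX:69509879-69640682, plus strand), had 706, 996 and 843 normalized counts in siRNF40, 1989.8, 1814 and 1884 in siTG2 and 2287, 2203 and 2156 in siControl. Its siRNF40 libraries lay at 38.3% of the control mean, and its siTG2 libraries lay just below siControl without passing the threshold (-1.40, SE 0.10, limma adjusted p = 2e-09 in siRNF40, -0.23, SE 0.10, limma adjusted p = 0.096 in siTG2). It was called lower in siTG2 with the 6 libraries of the contrast alone and without siRNF40 replicate 1 or 2 (limma adjusted p = 0.013, 0.043 and 0.042, and 0.013 to 0.57 over the alternatives). KIF18A, which aligns chromosomes at the spindle equator (chr11:28042167-28129855, minus strand), had 943, 1045 and 938 normalized counts in siRNF40, 1725, 1705 and 1788 in siTG2 and 2022, 2124 and 2096 in siControl. All 3 groups stood apart (-1.09, SE 0.076, limma adjusted p = 1.4e-09 in siRNF40, -0.26, SE 0.076, limma adjusted p = 0.014 in siTG2). KIF11, the motor that pushes the spindle poles apart (chr10:94353043-94415150, plus strand), had 1623, 1512 and 1348 normalized counts in siRNF40, 2573, 2304 and 2194 in siTG2 and 3111, 3289 and 3059 in siControl, again with no overlap (-1.08, SE 0.082, limma adjusted p = 4.8e-09 in siRNF40, -0.42, SE 0.082, limma adjusted p = 0.00063 in siTG2). KIF2C, a microtubule depolymerase that corrects faulty attachments (chr1:45205490-45233439, plus strand), had 2381, 2290.0 and 2369.5 normalized counts in siRNF40, 2623, 2704 and 2550.0 in siTG2 and 3714, 3996 and 3864 in siControl. It showed the largest kinesin change in siTG2, nearly as large as in siRNF40 (-0.72, SE 0.065, limma adjusted p = 4.7e-08 in siRNF40, -0.55, SE 0.065, limma adjusted p = 2.8e-06 in siTG2). KIF23, the motor of the centralspindlin complex (chr15:69706585-69740764, plus strand), had 2097, 2202 and 2109 normalized counts in siRNF40, 2518, 2448 and 2756 in siTG2 and 3443, 3609 and 3670.3 in siControl and was called lower in both (-0.74, SE 0.069, limma adjusted p = 6.6e-08 in siRNF40, -0.47, SE 0.069, limma adjusted p = 3.3e-05 in siTG2). The smallest kinesin change in siRNF40 was that of KIF20A, a motor that carries the passenger complex to the central spindle. It had 924, 932 and 861 normalized counts in siRNF40, 1204, 1347 and 1363 in siTG2 and 1321, 1411 and 1413 in siControl. The siRNF40 libraries lay below all others and siTG2 overlapped siControl (log2 fold change -0.61 in siRNF40, and -0.084 in siTG2, not called). BRD8 and CDC23 overlap KIF20A on the opposite strand, with normalized counts at 174% and 142% of its own. KIF15, which helps hold the spindle bipolar, was called lower in both (-0.92 in siRNF40, -0.37 in siTG2). KIF14, a midbody motor, was called lower in siRNF40 at -1.03, with -0.12 in siTG2, not called.

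The other spindle microtubule proteins had the lowest median of the 10 roles in siRNF40, at -1.19 over 6 genes, all called lower, although the ranges of the roles overlapped and no test between roles was made. In siTG2, 4 of 6 were lower (median -0.23). TPX2, which nucleates microtubules and activates Aurora A (chr20:30327074-30389608, plus strand), had 4179, 4203 and 4080.4 normalized counts in siRNF40, 8535, 8349 and 8332 in siTG2 and 9672, 9901 and 10589 in siControl. The 3 siRNF40 libraries lay close together, and no groups overlapped (-1.27, SE 0.058, limma adjusted p = 6.1e-12 in siRNF40, -0.26, SE 0.058, limma adjusted p = 0.0023 in siTG2). HMMR, a spindle pole protein (chr5:162887209-162918947, plus strand), had 1597, 1597 and 1457 normalized counts in siRNF40, 2978, 2555 and 2951 in siTG2 and 3565, 3458 and 3802 in siControl, also without overlap (-1.22, SE 0.077, limma adjusted p = 4e-10 in siRNF40, -0.35, SE 0.077, limma adjusted p = 0.0016 in siTG2). ASPM, which focuses microtubules at spindle poles (chr1:197053258-197115824, minus strand), had 2117, 2108 and 1389 normalized counts in siRNF40, 5207, 4107 and 4916 in siTG2 and 4042, 3835 and 4433 in siControl. Its siRNF40 replicate 3 was well below the other 2 siRNF40 libraries, and its siTG2 libraries ranged from within siControl to above it (-1.16, SE 0.12, limma adjusted p = 4.2e-07 in siRNF40, 0.20, SE 0.12, limma adjusted p = 0.23 in siTG2). Under scaling to equal totals ASPM was called higher in siTG2 (log2 fold change 0.35, limma adjusted p = 0.035), with adjusted p from 0.028 to 0.52 over the alternatives. CKAP2, a microtubule-associated protein of the spindle, had 2119, 2124 and 1865 normalized counts in siRNF40, 4382, 3811 and 4127 in siTG2 and 4997, 4505 and 4800.4 in siControl. NUSAP1, a microtubule bundler, had 2543, 2906 and 2552 normalized counts in siRNF40, 3798, 4119.7 and 4033 in siTG2 and 4817, 4673 and 4609 in siControl. In both genes the 3 groups stood apart, and both were called lower in both knockdowns, CKAP2 at -1.23 in siRNF40 and -0.22 in siTG2 and NUSAP1 at -0.82 and -0.24. DLGAP5, which stabilizes kinetochore fibres, was called lower in siRNF40 (-0.96) and not called in siTG2 (0.013).

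At the centromere and kinetochore, all 12 genes fell in siRNF40 (median -0.92) and 6 of 12 fell in siTG2 (median -0.29). CENPA, the histone H3 variant that marks centromeres (chr2:26987157-27023935, plus strand), had 405, 309 and 378 normalized counts in siRNF40, 833, 882 and 795 in siTG2 and 759.8, 833 and 754 in siControl. It was at 46.5% of the control mean in siRNF40, and in siTG2 it overlapped siControl (-1.11, SE 0.11, limma adjusted p = 1.9e-07 in siRNF40, 0.096, SE 0.11, limma adjusted p = 0.56 in siTG2). SLC35F6 overlaps CENPA on the same strand, with normalized counts at 479% of its own. Of 4 members of the constitutive inner network, CENPK and CENPM were called lower in siTG2 and CENPI and CENPN were not, and no test between genes was made. CENPK (chr5:64813593-64858998, minus strand) had 395, 405 and 453 normalized counts in siRNF40, 669, 592 and 707 in siTG2 and 924, 971 and 1031 in siControl, with the groups apart (-1.22, SE 0.11, limma adjusted p = 2.2e-08 in siRNF40, -0.57, SE 0.11, limma adjusted p = 0.00034 in siTG2). CENPM (chr22:42334725-42343168, minus strand) had 347, 304 and 318 normalized counts in siRNF40, 282, 326 and 324 in siTG2 and 528, 633 and 501 in siControl. Both knockdowns lay far below siControl and overlapped each other, and this was the largest kinetochore change in siTG2 (-0.77, SE 0.13, limma adjusted p = 7.2e-05 in siRNF40, -0.83, SE 0.13, limma adjusted p = 7e-05 in siTG2). CENPI (chrX:100353178-100418670, plus strand) had 286, 324 and 167 normalized counts in siRNF40, 471, 474 and 515 in siTG2 and 644, 496 and 557 in siControl. Its siRNF40 replicate 3 was the lowest of the 9 libraries, and siTG2 overlapped siControl (-1.17, SE 0.18, limma adjusted p = 3.4e-05 in siRNF40, -0.21, SE 0.18, limma adjusted p = 0.42 in siTG2). CENPN (chr16:81040103-81066719, plus strand) had 867, 905 and 759 normalized counts in siRNF40, 1333, 1223 and 1299.9 in siTG2 and 1238, 1338 and 1206 in siControl, and it showed the smallest change of the 12 in siRNF40 (-0.58, SE 0.090, limma adjusted p = 2.9e-05 in siRNF40, 0.029, SE 0.090, limma adjusted p = 0.85 in siTG2).

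The NDC80 complex, the 4-subunit coupler of kinetochores to microtubules, was lower in siRNF40 in each subunit. NDC80 itself (chr18:2571510-2616634, plus strand) had 1472, 1582 and 1336 normalized counts in siRNF40, 2404, 2121 and 2392 in siTG2 and 2820.5, 2936 and 3149 in siControl, without overlap (-1.02, SE 0.081, limma adjusted p = 8.3e-09 in siRNF40, -0.37, SE 0.081, limma adjusted p = 0.0019 in siTG2). SPC24, of its inner end (chr19:11242196-11266484, minus strand), had 415, 338 and 406 normalized counts in siRNF40, 374, 464 and 419 in siTG2 and 676, 553 and 574 in siControl. Both knockdowns lay below siControl (-0.64, SE 0.13, limma adjusted p = 0.00043 in siRNF40, -0.52, SE 0.13, limma adjusted p = 0.0042 in siTG2). The partners NUF2 and SPC25 were called lower in siRNF40 (-0.88 and -0.95) and not in siTG2 (-0.11 and -0.21), and no test of the difference between subunits was made. The SPC24 value is uncertain too, because of overlapping annotation. CASC5 (KNL1), the platform that recruits BUB1, had -1.08 in siRNF40 and -0.37 in siTG2, and the kinetochore motor CENPE had -0.82 and -0.37, all called lower. CENPF, a large outer kinetochore protein, was called lower in siRNF40 (-0.89) and not in siTG2 (-0.045).

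In the chromosomal passenger complex and the shugoshins, all 6 genes fell in siRNF40 (median -0.81) and 2 of 6 fell in siTG2 (median -0.27). SGOL1, which protects cohesin at centromeres (chr3:20202085-20227784, minus strand), had 136, 168 and 178 normalized counts in siRNF40, 409.8, 366 and 380.2 in siTG2 and 437, 458 and 386 in siControl. The siRNF40 libraries lay far below the other groups, which overlapped each other (-1.41, SE 0.14, limma adjusted p = 1.9e-07 in siRNF40, -0.15, SE 0.14, limma adjusted p = 0.47 in siTG2). INCENP, the scaffold of the passenger complex (chr11:61891445-61920635, plus strand), had 1009, 1029 and 792 normalized counts in siRNF40, 1624, 1511 and 1356 in siTG2 and 1726, 1711 and 1947 in siControl. Its siTG2 libraries were all below siControl but missed the threshold (-0.93, SE 0.10, limma adjusted p = 5.4e-07 in siRNF40, -0.26, SE 0.10, limma adjusted p = 0.059 in siTG2). The siTG2 call of INCENP was gained with the 6 libraries of the contrast alone, without siRNF40 replicate 3 and without siTG2 replicate 1 (limma adjusted p = 0.017, 0.017 and 0.042, and 0.017 to 0.40 over the alternatives). AURKB, the kinase Aurora B of the complex (chr17:8108056-8113918, minus strand), had 799, 918 and 1058 normalized counts in siRNF40, 1029, 1164 and 1077 in siTG2 and 1497, 1582 and 1519 in siControl. It showed the smallest change of the 6 in siRNF40 and the largest in siTG2 (-0.74, SE 0.098, limma adjusted p = 5.3e-06 in siRNF40, -0.49, SE 0.098, limma adjusted p = 0.00073 in siTG2). BIRC5 (survivin), the subunit that brings the complex to centromeres, had 583, 573 and 653 normalized counts in siRNF40, 734, 975 and 795 in siTG2 and 1108, 1038 and 916 in siControl. It was called lower in siRNF40 (-0.76), and siTG2 overlapped siControl in 1 library, with -0.30 (limma adjusted p = 0.053, and 0.011 to 0.32 over the alternatives). CDCA8 (borealin) was called lower in both (-0.81 in siRNF40, -0.28 in siTG2). SGOL2, the other shugoshin, had 1162, 1164 and 1061 normalized counts in siRNF40, 2139, 1969 and 2091 in siTG2 and 2083, 1923 and 1954 in siControl. It was called lower in siRNF40 (-0.82) and had 0.057 in siTG2, not called, where the libraries overlapped siControl.

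Among the cytokinesis genes, all 5 fell in siRNF40 (median -0.77) and 3 of 5 fell in siTG2 (median -0.25). ANLN, which encodes anillin, the scaffold of the contractile ring (chr7:36429415-36493400, plus strand), had 1366, 1552 and 1281 normalized counts in siRNF40, 4777, 4366 and 4762 in siTG2 and 5099.8, 5119 and 5154 in siControl. Its siRNF40 libraries stood at 27.3% of the control mean, the lowest of the 56 genes, and its siTG2 libraries lay slightly below siControl (-1.88, SE 0.074, limma adjusted p = 1.1e-12 in siRNF40, -0.15, SE 0.074, limma adjusted p = 0.15 in siTG2). PRC1, which bundles the antiparallel microtubules of the central spindle (chr15:91509270-91538859, minus strand), had 2709.7, 2571 and 2525 normalized counts in siRNF40, 2086, 2312 and 2382 in siTG2 and 4311, 4168 and 4277 in siControl. The groups stood apart, with siRNF40 at 61.2% of the control mean and siTG2 lower still, at 53.1% (-0.71, SE 0.069, limma adjusted p = 1.2e-07 in siRNF40, -0.91, SE 0.069, limma adjusted p = 9.9e-09 in siTG2). ECT2, the exchange factor that activates RhoA at the equator (chr3:172468472-172539264, plus strand), had 2725, 3154 and 2408 normalized counts in siRNF40, 4879, 4239 and 4564 in siTG2 and 5073, 5491 and 5648 in siControl, with siTG2 below siControl in all libraries (-0.98, SE 0.086, limma adjusted p = 3.2e-08 in siRNF40, -0.25, SE 0.086, limma adjusted p = 0.036 in siTG2). With the replicate number as a block the siTG2 call of ECT2 ended (limma adjusted p = 0.053, and 0.0055 to 0.52 over the alternatives). CEP55, which recruits the abscission machinery to the midbody (chr10:95256389-95288849, plus strand), had 2249.7, 2592 and 2059 normalized counts in siRNF40, 2776, 2747 and 3061 in siTG2 and 3903, 3812 and 3983 in siControl, with no overlap (-0.77, SE 0.080, limma adjusted p = 2.9e-07 in siRNF40, -0.45, SE 0.080, limma adjusted p = 0.00028 in siTG2). RACGAP1, the partner of KIF23 in centralspindlin, had 2763, 2869.9 and 2586 normalized counts in siRNF40, 4087, 3946 and 4075 in siTG2 and 4195, 4320.1 and 4623 in siControl. It showed the smallest change of the 5 in siRNF40 (-0.68, called), and its siTG2 libraries lay just below siControl without a call (-0.12).

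Both chromosome proteins and both transcription factors were lower in siRNF40 and in siTG2. TOP2A, the topoisomerase that untangles sister chromatids (chr17:38544768-38574202, minus strand), had 3467, 3847 and 3245 normalized counts in siRNF40, 7162, 6475 and 6756 in siTG2 and 8315, 8109 and 8430.3 in siControl, without overlap (-1.24, SE 0.068, limma adjusted p = 6.9e-11 in siRNF40, -0.29, SE 0.068, limma adjusted p = 0.0034 in siTG2). MKI67, the proliferation marker Ki-67 that coats mitotic chromosomes (chr10:129894923-129924649, minus strand), had 9356, 9512 and 8993 normalized counts in siRNF40, 16032, 14927 and 15912 in siTG2 and 19287, 18376 and 20018 in siControl. It was at 48.3% of the control mean in siRNF40 and 81.3% in siTG2 (-1.05, SE 0.058, limma adjusted p = 7.3e-11 in siRNF40, -0.30, SE 0.058, limma adjusted p = 0.00063 in siTG2). MYBL2 (chr20:42295754-42345136, plus strand) had 1532, 1381 and 1849.7 normalized counts in siRNF40, 1339.7, 1322 and 1320.4 in siTG2 and 2718, 2733 and 2445 in siControl. The 3 siTG2 libraries lay close together, below all siRNF40 libraries (-0.74, SE 0.093, limma adjusted p = 2.8e-06 in siRNF40, -0.99, SE 0.093, limma adjusted p = 1.7e-07 in siTG2). FOXM1 (chr12:2966847-2986206, minus strand) had 1899, 1567 and 1968 normalized counts in siRNF40, 1728, 1835 and 1755 in siTG2 and 2378, 2455 and 2386 in siControl. It was down to about the same level in both knockdowns (-0.42, SE 0.083, limma adjusted p = 0.00042 in siRNF40, -0.44, SE 0.083, limma adjusted p = 0.00046 in siTG2). RHNO1, on the opposite strand, overlaps FOXM1 at 57.1% of its level.

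**Figure D3:**
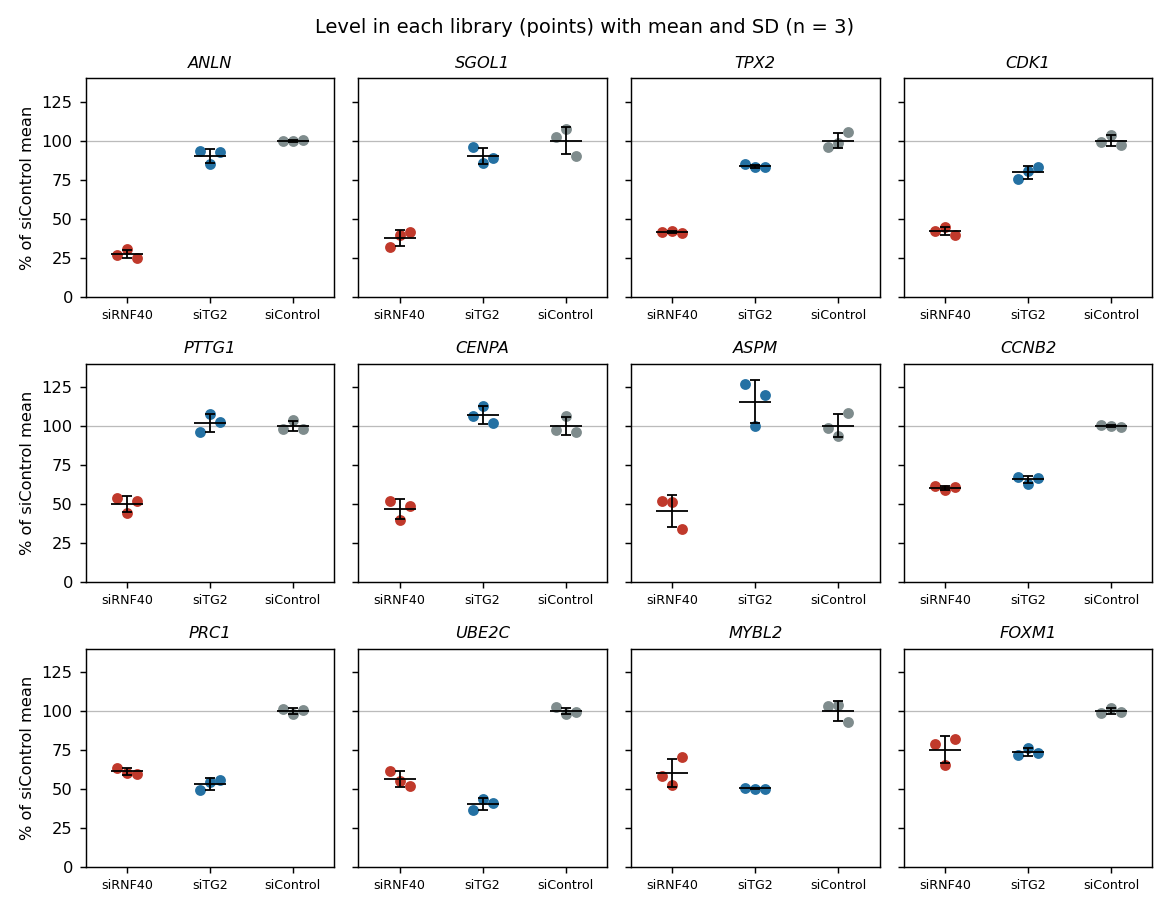
Level of 12 of the genes in each library as a percent of the siControl mean, for siRNF40 (red), siTG2 (blue) and siControl (grey), with the mean and SD of 3 libraries. ANLN, SGOL1, TPX2, CDK1, PTTG1, CENPA and ASPM are lowest in siRNF40, with siTG2 means from 79.8% (CDK1) to 116% (ASPM) of siControl. CCNB2, PRC1, UBE2C, MYBL2 and FOXM1 are low in both knockdowns.

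The contrast of siRNF40 with siTG2 tests whether the knockdowns differ. Of the 56 genes, 48 were lower in siRNF40 than in siTG2, 3 were higher and 5 were not called, where 26.6% of all genes tested were called lower and 26.6% higher. The median log2 fold change of siRNF40 over siTG2 was -0.66, against -0.014 over all genes. Every siRNF40 library lay below every siTG2 library for 48 of the 56, against 29.3% of all genes, and above for 3, against 29.0%. The 3 genes higher in siRNF40 were UBE2C (0.48, SE 0.082, limma adjusted p = 5.8e-05), MYBL2 (0.25, SE 0.093, limma adjusted p = 0.031) and PRC1 (0.21, SE 0.069, limma adjusted p = 0.018). The UBE2C call held under all 19 alternatives, whereas quantile normalization and scaling to equal totals each left only UBE2C called higher. The 5 genes not called were CCNB2 (-0.12), SPC24 (-0.12), FOXM1 (0.025), CENPM (0.058) and ZWILCH (0.12), all lower than siControl in both knockdowns. CCNB2 was called lower in siRNF40 than in siTG2 under quantile normalization (-0.17, limma adjusted p = 0.044) and under equal totals (-0.30, limma adjusted p = 0.0012), with adjusted p up to 0.3 over the alternatives. The largest gaps in the other direction were those of ANLN (-1.73, SE 0.074, limma adjusted p = 1.4e-12), ASPM (-1.36, SE 0.12, limma adjusted p = 3.1e-08), SGOL1 (-1.26, SE 0.14, limma adjusted p = 4.5e-07), CENPA (-1.21, SE 0.11, limma adjusted p = 3.8e-08) and KIF4A (-1.17, SE 0.10, limma adjusted p = 1.1e-08). Of the 48 genes lower in siRNF40 than in siTG2, 46 were so under all 19 alternatives, and the exceptions were KIF2C and AURKB. Leaving out siRNF40 replicate 1 or siTG2 replicate 1 ended the PRC1 call, and leaving out siRNF40 replicate 3 or any siTG2 library ended that of MYBL2.

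Joined with the comparisons against siControl, which share their control libraries, these calls sort the 56 genes into 4 patterns. In 26 genes, both knockdowns were lower than siControl and siRNF40 was the lower of the pair, as in BUB1B, TTK, CDK1, PLK1, AURKA, TPX2, NDC80 and TOP2A. This pattern holds all 15 genes whose siTG2 call was lost under at least 1 alternative, BUB1B, TTK, CDK1, AURKA, TPX2 and TOP2A among them. It also holds KIF2C and AURKB, whose direct call was lost, so its size depends on the setting. In 22 genes, siRNF40 was lower than both other groups and siTG2 was not called against siControl. These were BUB1, ZWINT, CCNB1, CDC20, PTTG1, KIF14, KIF20A, KIF4A, DLGAP5, ASPM, CENPA, CENPF, CENPI, CENPN, NUF2, SPC25, BIRC5, INCENP, SGOL1, SGOL2, ANLN and RACGAP1. Under at least 1 alternative, BIRC5, KIF4A, INCENP and CDC20 were called lower in siTG2 and ASPM higher. The size of this pattern therefore depends on the setting too. In 5 genes, CCNB2 among them, both knockdowns were lower than siControl and not called against each other as the values were deposited, and in 3 genes siTG2 was the lowest group.

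**Figure D4:**
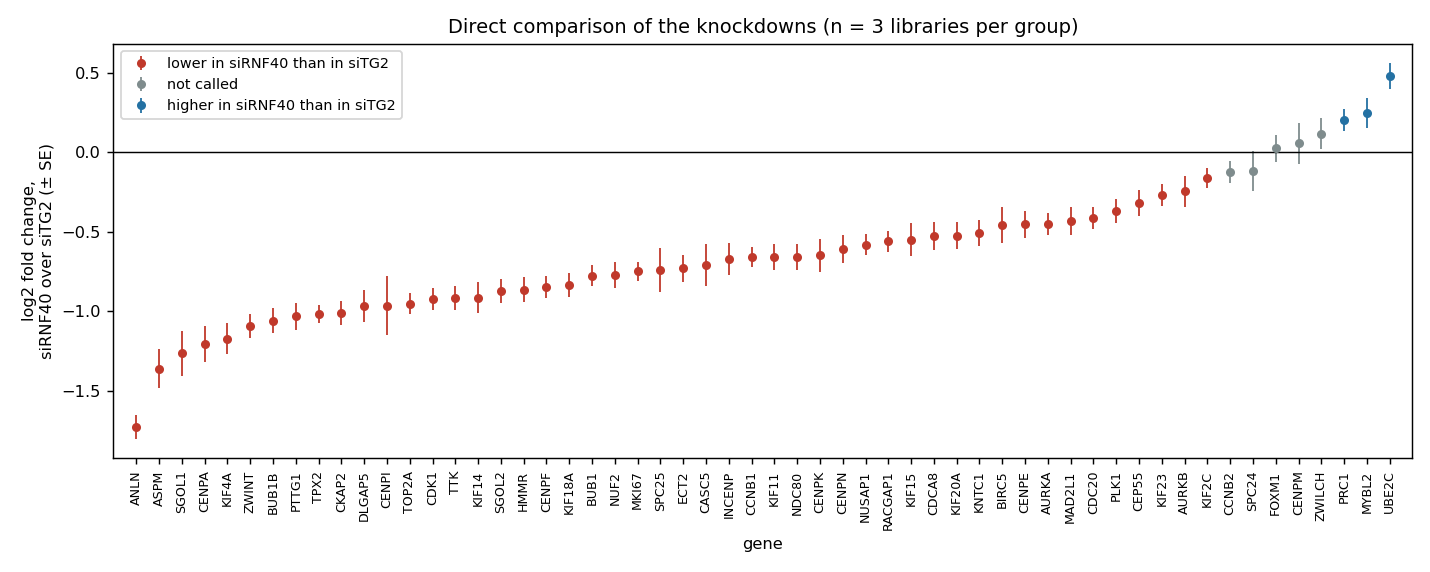
Log2 fold change of siRNF40 over siTG2 for the 56 genes in rising order, with limma's standard error (3 libraries per group). Red points were called lower in siRNF40 than in siTG2 (48 genes), grey points were not called (5), and blue points were called higher (3), of which UBE2C alone stays called when libraries are scaled to equal totals.

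Ratios of normalized counts between functional partners within a library do not depend on how libraries are scaled to each other. The pairs were chosen after the values had been seen, so the ratios are read as descriptions. The 12 exact permutation tests made on 6 ratios could not give a p below 0.1 with 3 against 3 libraries, so they decide nothing. The ratio not detailed below, UBE2C over PTTG1, averaged 2.17 in siRNF40, 0.758 in siTG2 and 1.92 in siControl. UBE2C over CDC20, the enzyme over the activator of the APC/C, was 0.556, 0.490 and 0.436 in siRNF40, 0.248, 0.262 and 0.283 in siTG2 and 0.637, 0.557 and 0.574 in siControl. The siTG2 libraries were the lowest, and the siRNF40 libraries lay below siControl by a narrow margin. CCNB2 over CCNB1 was 0.415, 0.374 and 0.425 in siRNF40, 0.292, 0.252 and 0.293 in siTG2 and 0.405, 0.405 and 0.412 in siControl. The siTG2 libraries lay below all others, and siRNF40 overlapped siControl. PRC1 over RACGAP1, both of the central spindle, was 0.981, 0.896 and 0.977 in siRNF40, 0.510, 0.586 and 0.585 in siTG2 and 1.03, 0.965 and 0.925 in siControl, with siTG2 again below the other groups. KIF23 over RACGAP1, the subunits of centralspindlin, was 0.759, 0.767 and 0.816 in siRNF40, 0.616, 0.620 and 0.676 in siTG2 and 0.821, 0.836 and 0.794 in siControl, and siTG2 was lowest here too. SPC24 over NDC80 was 0.282, 0.213 and 0.303 in siRNF40, 0.156, 0.219 and 0.175 in siTG2 and 0.240, 0.188 and 0.182 in siControl, with overlap between the groups.

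**Figure D5:**
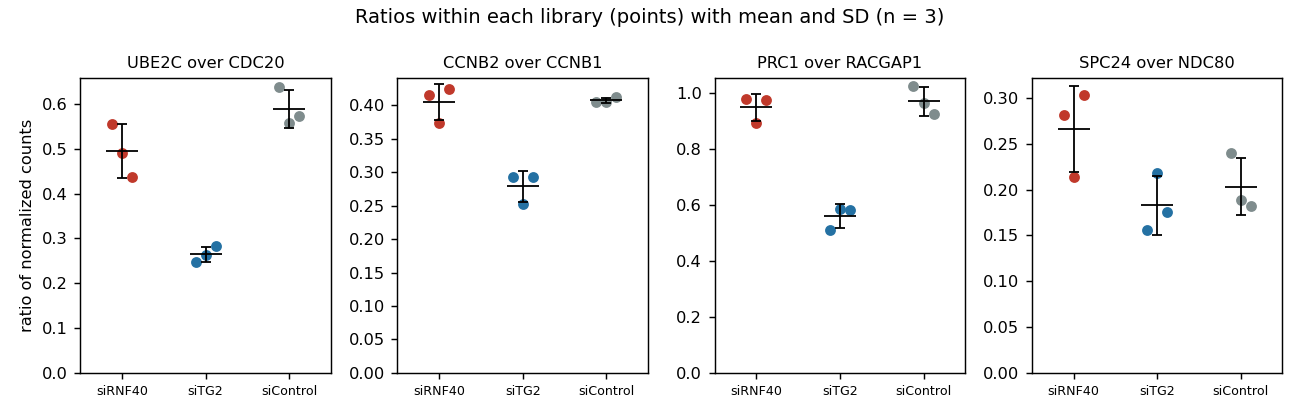
Ratio of normalized counts between functional partners in each library, for siRNF40 (red), siTG2 (blue) and siControl (grey), with mean and SD of 3 libraries. For UBE2C over CDC20, CCNB2 over CCNB1 and PRC1 over RACGAP1 the siTG2 points lie below all others, at means of 0.264, 0.279 and 0.560, against 0.589, 0.407 and 0.973 in siControl, and for SPC24 over NDC80 the groups overlap.

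Per kilobase of exon, the order of levels within siControl ran from CDC20 (3769 normalized counts per kb), UBE2C (3150.5), CCNB1 (3144), TPX2 (2789) and CDK1 (2474) down to CENPI (149) and SGOL1 (113). So the activator and the enzyme of the APC/C and cyclin B1 stood at the top, and a cohesin protector at the bottom. In siTG2 the level per kb of UBE2C was 1269, below those of CDC20 (3378), CCNB1 (3018), TPX2 (2332) and CDK1 (1975). Between mean normalized count and log2 fold change, Spearman's rho over the 56 genes was -0.091 in siRNF40 and 0.056 in siTG2. Between genomic span and log2 fold change it was -0.38 in siRNF40 over the 56 genes and -0.24 over 13678 tested protein-coding genes, and the same values in siTG2 were 0.16 and 0.021. The points are genes, not samples.

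A further 102 genes in 6 lists show how far the pattern reaches beyond the set. In siRNF40, 66 were called lower, 8 higher and 28 neither, with a median log2 fold change of -0.44, and in siTG2, 36, 3 and 63, with a median of -0.17. Of all genes tested, 23.6% were lower and 21.7% higher in siRNF40, and 18.5% were lower and 12.8% higher in siTG2, and the counts of each list below are to be read against these shares. Over the alternatives the count of lower genes ran from 63 to 68 in siRNF40 and from 19, under equal totals, to 40 in siTG2. Among regulators of the G2/M transition, 15 of 16 were lower in siRNF40 and none was higher. WEE1, the kinase that restrains CDK1, fell most (-1.31), and CDC25B, a phosphatase that activates CDK1, was lower in siRNF40 (-0.52) and lower still in siTG2 (-0.97; direct contrast 0.45, SE 0.066, limma adjusted p = 1e-05). BORA, an activator of PLK1 through Aurora A, fell by 1.19 in siRNF40. In siTG2, 6 of the 16 were lower (4 to 7 over the alternatives).

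Of 25 other centromere and kinetochore genes, 17 were lower and 1 higher in siRNF40, and 11 were lower in siTG2, with 4 lower there under equal totals and 7 under quantile normalization. OIP5, which loads CENPA onto centromeres, had 79.5, 93.4 and 71.5 normalized counts in siRNF40, 218, 175 and 205 in siTG2 and 331, 343 and 379 in siControl. Its decrease in siRNF40 was larger than that of any of the 56 (-2.10, SE 0.17, limma adjusted p = 1.2e-08) and the gene was also lower in siTG2 (-0.82, SE 0.17, limma adjusted p = 0.0012). SPDL1, which recruits dynein to kinetochores, had 385, 461 and 400.3 normalized counts in siRNF40, 1212, 1371 and 1339 in siTG2 and 1539, 1382 and 1319 in siControl. The siRNF40 libraries lay below all others, and siTG2 was not called against siControl (-1.77, SE 0.098, limma adjusted p = 7.3e-11 in siRNF40, -0.11, SE 0.098, limma adjusted p = 0.42 in siTG2). DSN1, of the MIS12 complex, fell by 1.44 in siRNF40 and fell by 0.35 in siTG2. HJURP, the chaperone of CENPA, fell by 1.13 in siRNF40 and fell by 0.31 in siTG2. Scaling to equal totals ended both calls in siTG2 (limma adjusted p = 0.095 for each). Of 23 other spindle and motor genes, 14 were lower and 1 higher in siRNF40, and 7 were lower and 1 higher in siTG2. TACC3, a spindle protein that binds CKAP5 and clathrin, fell by 1.20 in siRNF40, with 0.026 in siTG2. The exception upward was KIFC3, a minus-end motor known from cell junctions and trafficking, at 1.00 in siRNF40 and -0.35 in siTG2.

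Of 17 genes of the APC/C and its regulators, 7 were lower, 1 was higher and 9 were not called in siRNF40, with a median of 0.015, and 5 were lower in siTG2. Over the alternatives that siTG2 count ran from 2 to 5, with 2 under equal totals or without siControl replicate 3, and 3 under quantile normalization, no filter, the replicate block, or without siTG2 replicate 1 or 3 or siControl replicate 1 or 2. FBXO5 (EMI1), an inhibitor of the APC/C, fell by 1.00 in siRNF40, and the core subunit ANAPC5 was higher there (0.31) and lower in siTG2 (-0.39). Of 10 cytokinesis partners, 6 were lower and 2 higher in siRNF40. DEPDC1 fell by 1.21 and the citron kinase CIT fell by 1.14, while the abscission subunit CHMP4B rose by 0.58. Of 12 genes of the DREAM and MuvB complexes, 8 were lower and 3 higher in siRNF40, and 2 were lower and 2 higher in siTG2, so the higher genes in siRNF40 and both counts in siTG2 were near the shares of all genes. The pocket protein p107 (RBL1) fell by 1.07 in siRNF40. E2F4, an E2F of DREAM, was higher in siRNF40 (0.34) and lower in siTG2 (-0.57), and E2F5 was higher in both (0.68 and 0.53). A CHR word stood in the promoter window of 51.8% of the 56 matched further genes that were lower in siRNF40, and of 25.9% of the 27 matched genes that were not called.

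The 7-base word GTCTTCA, singled out by an earlier look at these libraries, was searched for in the transcripts. It stood in the 3′ UTR of 6 of the 56 genes (10.7%), namely MAD2L1, AURKA, TPX2, CENPK, BIRC5 and ANLN, against 15.9% of 13187 tested protein-coding genes. In siRNF40 these 6 had a median log2 fold change of -1.02 and the other 50 one of -0.89. In siTG2 the same medians were -0.30 and -0.26. Because the word came from these same libraries, the medians are descriptions and test nothing. Anywhere in the transcript the word stood in 22 of the 56 genes (39.3%), against 31.4% of the tested protein-coding genes. Over the 34 genes that hold it nowhere in the transcript the median was -0.82 in siRNF40, with all 34 called lower. In siTG2 their median was -0.31, with 20 called lower. Another word from that look, GCGCCCT, stood in the 3′ UTR of 1 of the 56 (1.79%), PRC1, against 3.58%. Anywhere in the transcript GCGCCCT stood in 5 of the 56 (8.93%), against 19.2%.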

How the data were processed

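Polyadenylated RNA was measured in 9 HCT116 libraries, 3 each of siRNF40, siTG2 and siControl. Per the submitters' processing notes, the authors used Trim Galore 0.4.1, STAR 2.7.0, HTSeq 0.12.4 and DESeq2. Builds hg19 and hg38 are both named, and the gene coordinates in the deposited table are hg19. Whether the counting used strand is not given in the sources used here.

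The deposited signal values are read counts per gene divided by 1 DESeq2 size factor per library. All came back to whole reads within 0.001 reads. The columns named NC were taken as siControl, because their means equal the siNC column of the authors' deposited comparison tables. Those tables also hold the authors' log2 fold changes, Wald scores and p-values, of which the calls on the 56 genes are quoted.

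Genes averaging at least 10 normalized counts (17663) were tested with limma 3.58.1 in R 4.3.3, with intensity trend, on log2(deposited value + 1). All 9 libraries entered 1 fit with 3 group means. The test was two-sided, with Benjamini-Hochberg adjustment over all genes tested, and a call is an adjusted p under 0.05. Fold changes are on the log2(value + 1) scale. The pipeline was tested on simulated data. The 19 alternatives per contrast were a pseudocount of 0.5 or 10, no filter, quantile normalization, equal totals, the 6 libraries of the contrast alone, a replicate block, edgeR 4.0.16 with TMM or DESeq2 size factors, DESeq2 1.42.0, and each of the 9 libraries left out. The count tests ran on the recovered reads. Group sums and promoter words were computed in Python 3.11.15.

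The genes, roles and further lists were chosen with earlier results of these data known. Values per library are given, within each role, for up to 3 genes with the largest and 1 with the smallest change in siRNF40 and up to 2 with the largest change in siTG2. ASPM, NDC80 and SPC24 fall outside this rule, and their values per library are given as well. From each further list, up to 4 called genes with the largest changes and a mean of at least 50 normalized counts could be named. Among the further genes HJURP and CHMP4B fall outside this rule and were picked after their values were seen. Untranslated regions come from GENCODE annotation.

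Of the 56 genes, 35 overlap another annotated gene, and for 13 an overlapping gene has over 10% of their normalized counts. These are ZWILCH, KIF15, KIF18A, KIF20A, KIF4A, CENPA, CENPN, NUF2, SPC24, SPC25, SGOL2, ANLN and FOXM1, and reads from the overlap could have been split or shared. SPC25 has a second row off the primary chromosomes, which was not used. No promoter entry was matched for TTK, KNTC1, AURKA, UBE2C, TPX2, CENPM, CASC5, BIRC5, RACGAP1 and FOXM1. No batch is named in the labels.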

Additional observations from a re-analysis of the deposited data

How the results depend on the processing

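Under the 19 alternatives, all 56 genes stayed lower in siRNF40 than in siControl, each with its call. The median log2 fold change there was -0.82 under quantile normalization and -0.92 to -0.84 with 1 library left out. In siTG2, 21 were lower and 1 was higher under quantile normalization and under equal totals, with medians of -0.16 and -0.13. Leaving out 1 library gave 28 to 36 lower, 0 to 1 higher and a median of -0.29 to -0.26. In siRNF40 against siTG2, 1 gene was higher under quantile normalization and under equal totals, with medians of -0.71 and -0.83. Leaving out 1 library gave 46 to 48 lower, 1 to 3 higher and a median of -0.70 to -0.57. Equal totals moved the median over all genes to 0.13 in siTG2 against siControl (-0.0069 as reported) and to -0.19 in siRNF40 against siTG2 (-0.014). The normalized totals it evens out were lower in siTG2, and which scaling is nearer to the cells was not tested.

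The sign of these uncalled values turned, and the cause was not tested. In siTG2 against siControl, quantile normalization gave ANLN 0.016, KIF20A 0.023, CDC20 0.012, CENPF 0.17, KIF14 0.0018, CCNB1 0.12, NUF2 0.0011, RACGAP1 0.051, BUB1 0.059, CHMP4B 0.045, CDKN1A 0.16 (limma adjusted p = 0.044, 0.044 to 0.99 over the alternatives) and WEE1 0.094. Equal totals gave KIF20A 0.059, CENPF 0.098, KIF14 0.024, CCNB1 0.083, NUF2 0.034, RACGAP1 0.026, BUB1 0.070, SPDL1 0.031, CHMP4B 0.060, CDKN1A 0.12 and WEE1 0.11, and edgeR with TMM gave CDKN1A 0.0046. With 1 library left out, CENPF ran from -0.078 to 0.0089, ZWINT from -0.039 to 0.063, PTTG1 from -0.011 to 0.069, DLGAP5 from -0.031 to 0.047, CENPN from -0.0029 to 0.072, TACC3 from -0.044 to 0.092, CHMP4B from -0.20 to 0.016 and CDKN1A from -0.065 to 0.0090. In siRNF40 against siTG2, FOXM1 was -0.026 under quantile normalization, -0.15 under equal totals and -0.0028 with edgeR and TMM, and ran from -0.039 to 0.13 with 1 library left out. CENPM was -0.12 under equal totals and ran from -0.011 to 0.10 with 1 library left out. Equal totals also gave ZWILCH -0.058 and E2F5 -0.025.

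Libraries with the same replicate number did not deviate together (correlations of -0.075 to 0.081). So no pairing by number was seen, although the labels do not say what the numbers mean. The replicate block left 56 lower in siRNF40 and 33 in siTG2, where ECT2 lost its call (limma adjusted p = 0.053), and 47 in siRNF40 against siTG2, where KIF2C lost it (0.076). With 3 libraries per group, changes near 0 cannot be told from none at this depth.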

Other observations

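The 56 genes took 0.289% to 0.314% of all normalized counts in the siRNF40 libraries, 0.528% to 0.555% in the siTG2 libraries and 0.585% to 0.605% in the siControl libraries, with no overlap between the groups.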
